A study of Mus musculus with 6 samples.

Results

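The sites described here are the 1460 genomic sites, of 62236 measured, that bound the co-repressor CTBP2 strongly and to a similar extent in macrophages given vehicle and in macrophages given lipopolysaccharide (LPS), a component of the bacterial cell wall. They were chosen from the signal itself. The 20 sites of highest deposited mean signal were set aside, and each library was divided by its median over the remaining sites and multiplied by 45, so that a typical site has a scaled value of 45. Sites were ranked by the lowest of their 6 scaled values, the first 2000 were taken, and those with M between -0.3 and 0.3 were kept. M is the log2 ratio of the mean scaled value in LPS to that in vehicle, each with 1 added. Of the 2000, 344 had a higher M and 196 a lower one. Strength and the small difference between groups are therefore what chose these sites, and both are given as a description with no test.

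Chromatin immunoprecipitation and sequencing was done on bone marrow-derived macrophages of wildtype male C57BL6/N mice aged 6 to 12 weeks. Marrow cells were differentiated until day 6 in medium holding L929 supernatant, kept in serum-free medium, and given PBS as vehicle (3 libraries) or LPS at 100 ng/ml (3 libraries) for 3 h. The cells were fixed with the protein crosslinker DSG and formaldehyde, and chromatin was sheared to fragments of 500 to 1000 bp and precipitated with an antibody to CTBP2. Replicates are numbered 1 to 3 in the labels, which leave unsaid whether each is its own animal or culture. The p-values thus rest on the spread of these libraries alone, and that spread may be technical. No input or control precipitation was analysed here, and the signal does not show expression, so the labelled cell type was not checked against marker transcripts.

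CTBP2 is a C-terminal binding protein, a nuclear cofactor that does not read DNA itself and is brought to chromatin by sequence-specific factors such as the ZEB, KLF and Ikaros proteins. It binds NADH and joins complexes with histone deacetylases, histone methyltransferases and the demethylase LSD1, and is best known for repressing genes. LPS acts on macrophages through the receptor TLR4, which switches on NF-kB, AP-1 and interferon pathways within hours.

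Of the 1460 sites, 471 lay at a gene start (a start within 500 bp of the site's centre), and 400 of these starts had a promoter sequence in RefSeq (build GRCm38.p6). The 150 bases before the start are shown for 5 of the strongest, because they differ in which factor sequences they hold. Each is read 5′ to 3′ on the gene's strand. Capitals mark the letters of 5 motifs, read on either strand. GAGGAAG is the sequence searched for PU.1, an ETS factor of macrophages. The core shared by many ETS factors was taken as GGAAGT, which can overlap the PU.1 letters and is then marked with them as 1 run. AP-1 factors are represented by TGANTCA and the factor NF-Y by CCAAT. The GC box of SP and KLF factors was searched as GGGCGG, and a match on the other strand is marked as its reverse complement. Apobr encodes a macrophage receptor for apolipoprotein B, Atf3 a stress-induced repressor, Dcaf12 a substrate receptor of a ubiquitin ligase, Arid5a an RNA-binding protein that stabilises inflammatory transcripts and Zyx the focal adhesion protein zyxin. The stretches lie at chr7:126584858-126585007 (+ strand), chr1:191183334-191183483 (- strand), chr4:41314902-41315051 (- strand), chr1:36307583-36307732 (+ strand) and chr6:42349678-42349827 (+ strand) in GRCm38.p6.
Apobr: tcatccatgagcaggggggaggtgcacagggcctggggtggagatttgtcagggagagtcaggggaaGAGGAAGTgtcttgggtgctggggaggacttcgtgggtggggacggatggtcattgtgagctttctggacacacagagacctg
Atf3: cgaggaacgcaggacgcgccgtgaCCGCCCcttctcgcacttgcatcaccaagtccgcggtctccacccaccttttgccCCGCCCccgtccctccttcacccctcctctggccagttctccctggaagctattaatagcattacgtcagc
Dcaf12: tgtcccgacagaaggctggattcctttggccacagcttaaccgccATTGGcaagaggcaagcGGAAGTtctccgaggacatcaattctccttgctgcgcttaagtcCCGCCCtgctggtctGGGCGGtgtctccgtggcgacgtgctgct
Arid5a: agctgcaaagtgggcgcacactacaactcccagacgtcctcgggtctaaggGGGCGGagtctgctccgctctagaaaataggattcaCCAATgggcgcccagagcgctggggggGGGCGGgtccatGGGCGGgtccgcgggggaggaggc
Zyx: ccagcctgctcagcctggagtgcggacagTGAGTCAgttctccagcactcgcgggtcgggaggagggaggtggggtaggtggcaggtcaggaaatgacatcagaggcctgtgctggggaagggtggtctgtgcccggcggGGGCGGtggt

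The Apobr promoter holds a PU.1 sequence that overlaps an ETS core, and none of the other motifs marked. That of Zyx holds 1 AP-1 sequence and 1 GGGCGG. Atf3 has 2 GGGCGG sequences in this stretch, Dcaf12 has 2 with 1 ETS core and 1 CCAAT, and Arid5a has 3 with 1 CCAAT. A match is a run of letters and does not show that a factor binds there. The site at the Arid5a start was close to the upper bound, with M of 0.30. It had 239, 231 and 233 in vehicle and 295, 262 and 308 in LPS, so every LPS value was above every vehicle value.

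Across the 400 promoters, taken as 250 bases before the start to 50 after, the letters of 15 motifs were searched on both strands. GGGCGG was found in 78% of them (Wilson 95% interval 73.7 to 81.8%), in 67.7% of the 7468 promoters at any CTBP2 site and in 46.7% of all 21045 placed promoters. The 103 promoters at strong sites with higher M had it in 79.6% (70.8 to 86.3%). GAGGAAG stood in 21.2% (17.5 to 25.5%), against 14.6% (9.03 to 22.6%) at strong sites with higher M, 13.7% at any site and 13.3% of all promoters. CCAAT was less frequent, in 28.8% (24.5 to 33.4%), against 33% (24.7 to 42.6%) at strong sites with higher M, 37.2% at any site and 38.5% of all. The KLF box GGGTG was in 68.5%, against 72.8% at strong sites with higher M, 62.4% at any site and 59.8% of all, and GGAAGT in 34.2%, against 32%, 31.1% and 25%. Strong sites with lower M had only 27 such promoters. Of these, 18.5% (8.18 to 36.7%) held GAGGAAG, so its share at unchanged sites lies within that interval. GGGCGG was in 70.4% of the 27, CCAAT in 40.7%, GGGTG in 59.3% and GGAAGT in 51.9%. The next shares are for promoters at unchanged sites, at any site and of all genes. The RUNX letters TGTGGT stood in 9.75%, 12.3% and 14.7%, and in 10.7% at strong sites with higher M. TGANTCA was in 5.5% of the promoters at strong unchanged sites, with 5.05% at any site and 7.04% of all, and the ZEB sequence CAGGTG in 18.8%, 17.3% and 19.9%. The NF-kB letters, GGG and TTTCC with 2 free letters between them, were in 2.25%, 1.74% and 1.62%. The C/EBP letters TTGCNNAA were in 8%, 8.22% and 10.3%, and the E-box CACGTG in 12.8%, 10.6% and 7.91%. At strong sites with higher M, CACGTG was in 9.71%. The interferon response letters, GAAA and GAAA with 2 free letters between them (3%, 3.19% and 3.38%), GCATGCG of NRF1 (6.25%, 7.2% and 4.48%), AGGGGGC of CTCF (15.8%, 16.8% and 13%) and AAGATGG of YY1 (5.75%, 7.3% and 6.28%) completed the search. AGGGGGC can overlap GGGCGG at its last letters, and no test of these shares was made.

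Promoters at strong sites with unchanged or higher M were rich in G and C. At the unchanged sites the median GC content was 65%, against 66.7% at strong sites with higher M, 61.7% at any site and 56.7% over all placed promoters, and GGGCGG and CCAAT differ in GC content themselves. The ratio of observed to expected CG steps had a median of 0.8, against 0.818, 0.781 and 0.574 in the same order. A ratio under 0.4 was found in 10.5% of the promoters at strong unchanged sites, in 12.6% of the 103 at strong sites with higher M, and in 44.4% (12 of 27) at strong sites with lower M. The last group is small.

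The sites bound at nearly the same level in both groups. Their median scaled value was 167 in vehicle and 169 in LPS, against 44.6 and 44.5 over all 62216 sites left after the 20 were set aside. The median M was 0.02, with quartiles of -0.11 and 0.13. The per-library medians over these sites were 165, 164 and 172 for vehicle and 174, 169 and 164 for LPS, in the order of the replicate numbers here and throughout. The 6 medians thus lie close together. The lowest value of a site over the 6 libraries ran from 120 to 347 with a median of 144.

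Strong sites of each kind were measured more precisely than the table as a whole. Within a group, log2 scaled values had a median SD of 0.143 at the unchanged sites, 0.137 and 0.142 at the strong sites with higher and lower M, and 0.223 over all sites. Deposited values below 300 steps were whole multiples, within 0.1 of a step, of a step that is constant in each library. If 1 step is 1 read, the libraries held 3243313 to 4553304 reads in sites, and the median site of this set had 149 to 207 reads per library. Counting error was then 7.5% of the value at the median site of the set, 7% and 7.37% at the strong higher and lower sites and 14.6% over all sites, and it covers counting only. The standard error of the log2 fold fitted by limma had a median of 0.13, and its 95% interval reached 0.27 to either side, as at the strong sites with higher and lower M. That interval lay wholly within a 2-fold change in either direction at 1448 of the 1460 sites (99.2%), and at 73.3% of all sites. It did so at 86.6% of the strong sites with higher M and 90.8% of those with lower M, where M itself is larger. Since the rule bounded M and ranked by the lowest value in these same libraries, nothing is read from these shares.

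None of the 1460 sites passed limma's adjusted p of 0.05, and 74 had an unadjusted p under 0.05. Over the whole table of 62236 sites, 29.6% were called, 16.1% higher in LPS (10039 sites) and 13.5% lower (8411). With the deposited values as they stand these calls were 1178 higher and 30 lower. The 3 LPS values were all above the 3 vehicle values at 128 of the strong unchanged sites, where the table as a whole had 21.6%, and all below at 103, where it had 20.6%. Since the rule used this contrast, nothing is read from these counts. Leaving out vehicle replicate 3 brought 86 of the same 1460 sites past the threshold, leaving out LPS replicate 1 brought 21, and leaving out LPS replicate 3 brought 9. Without vehicle replicate 1 there was 1, and without vehicle replicate 2 there were 2. In the authors' deposited table the lowest FDR of these sites was 0.751. Over all sites 2727 had an FDR under 0.05 there, 2497 higher and 230 lower. The deposited log2 folds of the 1460 ran from -0.0648 to 0.0735. They are not on the scale of M: the Dennd4b site had 0.0332 against an M of 0.29. At 88 of the sites the deposited fold had the other sign than M. The same libraries gave these folds, so nothing is read from them.

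**Figure D1:**
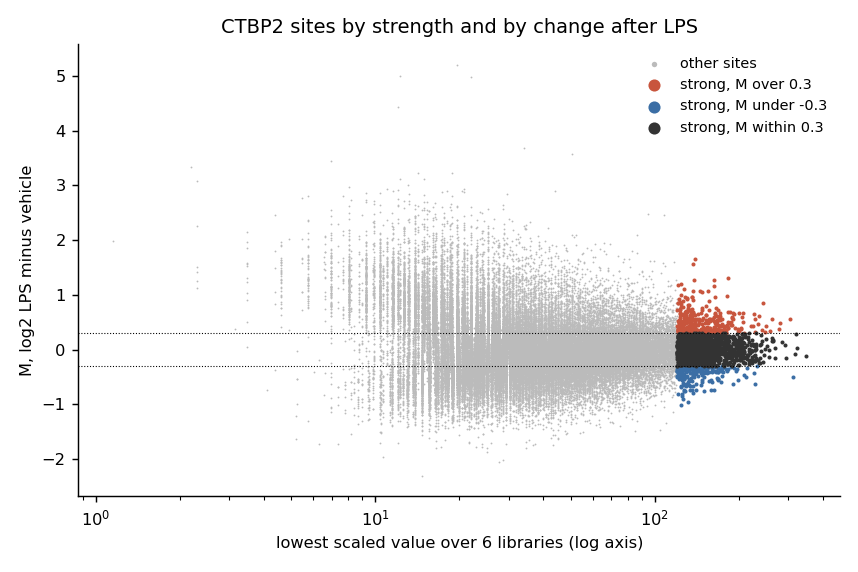
Each point is a CTBP2 site, with the lowest scaled value over the 6 libraries on a log x axis and M, the log2 difference of LPS and vehicle means, on the y axis. The 1460 strong unchanged sites (dark) lie right of 120 and between the dotted lines at -0.3 and 0.3, with 344 strong sites above (red) and 196 below (blue).

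The share of sites within these bounds of M was lower among weaker sites. It was 75.4% among the 500 strongest sites, 76.4% among the next 500 and 70.1% among the 1000 after those. It was 66.4% at ranks 4001 to 8000 and 35.9% at ranks 32001 to 62216, where counting error is larger too. Sites just inside and just outside the cuts differ little. Tagln2, an actin-binding protein gene, was just inside the upper bound, at 237, 218 and 263 in vehicle and 301, 288 and 294 in LPS. Supt4a, of a transcription elongation factor, was outside it at 181, 175 and 243 and then 227, 242 and 270. At the lower bound Coro2a, a coronin gene, was inside with 198, 182 and 196 in vehicle and 140, 173 and 154 in LPS, and Vim, which encodes vimentin, was outside with 222, 213 and 232 and then 183, 174 and 183. Near rank 2000, Tmem123 was inside and Rhob outside, both with a lowest value of 120. M was 0.07 at Tmem123 and -0.03 at Rhob.

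The same measure was also read in libraries the choice did not use. With number 1 held out, the rule applied to numbers 2 and 3 chose 1436 sites, and M between the 2 held-out libraries had a median of 0.10 there, with 74% within 0.3 and 99.9% within 1. With number 2 held out, 1460 sites had a median of 0.07 and 72.7% within 0.3. With number 3 held out, 1381 sites had a median of -0.08 and 69.7% within 0.3. All sites together had 43.2%, 43.2% and 37.5% within 0.3 in the same held-out libraries, and a larger share of them is weak. Strong sites chosen without regard to M were not read in this way, so the part of strength alone was not tested. The labels do not say that equal numbers mark paired libraries.

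The strongest site lay 13 kb before Gm21761 on chromosome 13, and it varied between libraries of a group. Its scaled values were 598, 571 and 347 in vehicle and 575, 481 and 350 in LPS, so replicate 3 was the lowest in each group and the groups overlap. Gm21761 is a predicted gene, the table names Anxa2r1 there, and whether reads shared with similar copies add to this site was not tested. Apobr had the next strongest site, at chr7:126183438-126184438, centred 210 bp before the start. It gave 393, 393 and 324 in vehicle and 396, 351 and 383 in LPS, or 370 ± 39.6 against 377 ± 23 (SD, n = 3 each). The values of Apobr overlap, and the fitted log2 fold was 0.03 with an interval of -0.21 to 0.27.

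Dennd4b, whose protein acts on Rab GTPases, had 331, 321 and 455 in vehicle and 487, 444 and 427 in LPS at chr3:90172466-90173466. Its M of 0.29 was close to the bound. A site inside Spen, which encodes a large repressor protein, gave 424, 466 and 342 in vehicle and 446, 368 and 296 in LPS. Gnai2, of an inhibitory G protein subunit, had 418, 374 and 285 and then 489, 380 and 323, and Nfam1, an immune receptor gene, 320, 330 and 264 and then 396, 361 and 279, both inside the gene. At the Spen, Gnai2 and Nfam1 sites replicate 3 was again the lowest library of each group.

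Fes, a tyrosine kinase of myeloid cells, had 319, 331 and 293 in vehicle and 378, 320 and 305 in LPS at a site 1 kb past its start. Mapkapk2, a kinase that acts below p38 in the LPS response, had a site 13.1 kb upstream with 281, 288 and 269 and then 307, 274 and 272. Its means were 279 ± 9.69 and 284 ± 19.5 (SD, n = 3), and the log2 fold of 0.02 had an interval of -0.22 to 0.26. Dot1l (a histone H3 lysine methyltransferase) had 297, 266 and 267 and then 328, 284 and 314. Zfat, a zinc finger gene, gave 279, 263 and 348 and then 327, 338 and 369 at its start. A site 16.2 kb before Srgn, the gene of the granule proteoglycan serglycin, gave 280, 296 and 263 and then 345, 305 and 285. The groups overlap at all 3, and M was 0.16, 0.21 and 0.16.

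**Figure D2:**
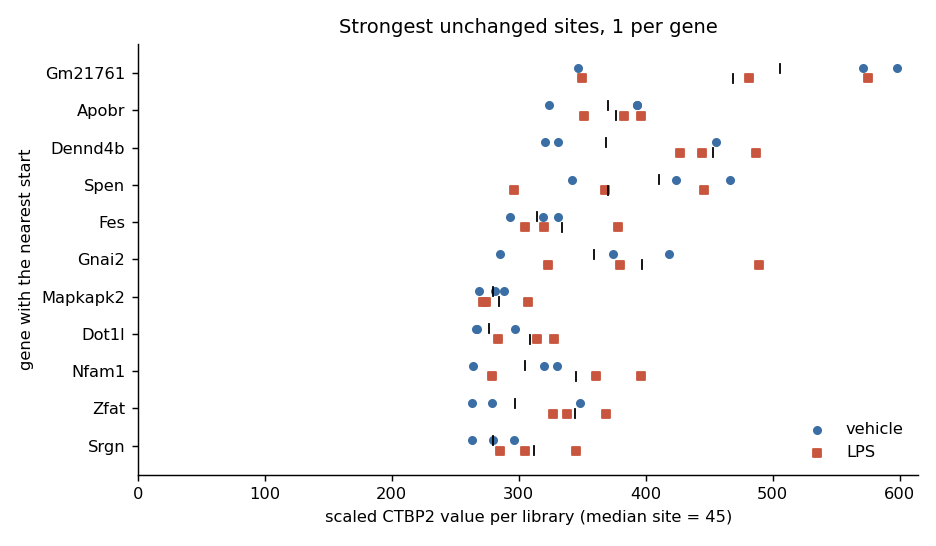
Scaled CTBP2 values of 11 of the 12 strongest unchanged sites, 1 per nearest gene, with 3 vehicle libraries (circles) and 3 LPS libraries (squares) per site and a black bar at each group mean. The groups of Apobr, Spen and Mapkapk2 overlap, and Gm21761 spans 347 to 598 in vehicle.

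Genes were assigned by the nearest gene start after an offset between the coordinates of sites and genes was measured in the table. Of 22783 starts held out of that search, 43.5% then had a site within 500 bp, against 5.86% with no offset. By this assignment 32.3% of the strong unchanged sites (471) were at a start, 30.1% (440) were elsewhere inside a gene and 37.6% (549) were between genes. Over all sites the shares were 13.8%, 44.5% and 41.7%. The strong sites with higher M had 34.9% at a start and those with lower M had 15.8% (31 of 196). Median distance to a start was 6.08 kb, against 3.69 kb for the strong higher, 15.3 kb for the strong lower and 18.3 kb for all sites. At this set 212 sites (14.5%) lay over 50 kb from any start. Without vehicle replicate 3 in the choice, the share at a start was 28.4%.

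At gene starts the libraries were spread differently from elsewhere. At the 471 starts the median scaled values were 154, 149 and 179 for vehicle and 164, 169 and 169 for LPS. At the other 989 sites it was 171, 173 and 168 in vehicle and 178, 170 and 163 in LPS. Vehicle replicate 3 was the highest of the vehicle libraries at 74.3% of the sites at starts (350) and at 32.5% of the others (321). At starts the medians of vehicle replicates 1 and 2 and LPS replicate 1 were below those of the other sites, and those of vehicle replicate 3 and LPS replicate 3 above. Vehicle replicate 3 was also high at the 8557 start sites of the whole table, with 88.8 against 73.5 and 73.6. The median M was 0.06 at starts and 0.00 elsewhere, and the part of single libraries in that difference was not tested.

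**Figure D3:**
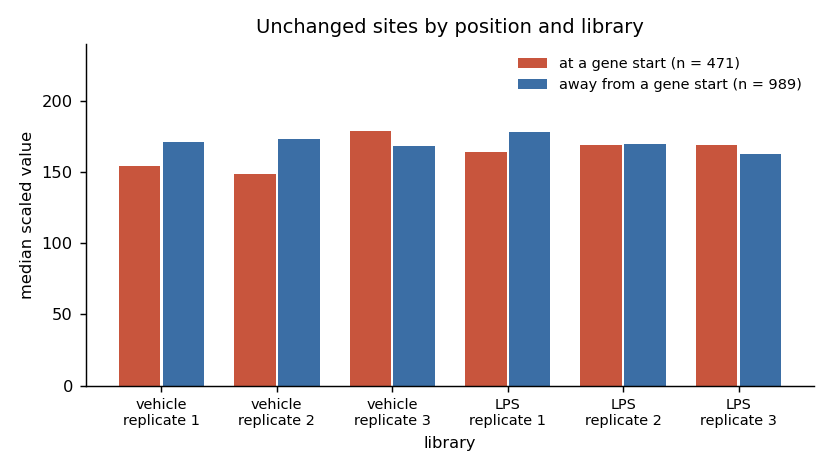
Median scaled value of the strong unchanged sites in each of the 6 libraries, for 471 sites at a gene start (red) and 989 away from one (blue). In vehicle replicates 1 and 2 the start sites are below the others (154 and 149 against 171 and 173), and in vehicle replicate 3 they are above (179 against 168).

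Of the 1460 sites, 20 had a within-group SD of log2 values over 0.4, 7 of them at a gene start. All 20 moved with replicate 3. It was the highest library in both groups at 10 of them and the lowest in both at the other 10. Eif1, a translation initiation factor gene, had 176, 130 and 315 in vehicle and 140, 205 and 275 in LPS at its start. At the start of Polr2a, the gene of the largest RNA polymerase II subunit, the values were 227, 164 and 440 and then 180, 232 and 310. Its fitted log2 fold was -0.11 with an interval of -1.35 to 1.12, which includes a 2-fold change. Actb, which encodes beta actin, had 196, 155 and 310 and then 185, 254 and 342 at a site 1.24 kb past its start.

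The sites lay nearest to 1292 genes, which is 9.55% of the 13533 genes nearest to any site. The largest shares were those of 2 lists, with 19 of 28 genes each (67.9%). These lists were immediate early and AP-1 genes, which respond first to a stimulus, and cytoskeleton and adhesion genes. Such genes also had more sites each, with a median of 8.5 and 7.5 against 3 for all genes, and per site the shares that were strong and unchanged were 8.64% and 9.96% against 2.35%. The lists were chosen with earlier results known, and no test of a list was made. By the gene the table names, 7 of 20 and 8 of 25 named genes of these lists had such a site, against 1213 of 8232 over all genes.

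Among the immediate early genes, the start of Atf3 (chr1:190915187-190916187) had 265, 241 and 286 in vehicle and 257, 273 and 319 in LPS. The means were 264 ± 22.8 and 283 ± 32.1 (SD, n = 3), and the groups overlap. Fosb, an AP-1 subunit gene, had 256, 270 and 212 and then 270, 219 and 204 at a site 6.67 kb upstream. At Ier3, whose product limits cell death, a site 44.8 kb upstream gave 243, 262 and 209 and then 264, 272 and 204. Dusp1, of a phosphatase that turns off MAP kinases, had 3 such sites, and the one at its start gave 221, 194 and 285 in vehicle and 196, 243 and 237 in LPS. At the other 2, which lay 10.8 and 6.37 kb from the start, every LPS value was above every vehicle value. M was 0.30 and 0.28 there, close to the bound. Fos had 2 strong unchanged sites (36.1 and 5.05 kb upstream), Jun 2 (54 and 109 kb upstream) and Myc 3 (14.4 to 407 kb away). The immediate early list had 33 such sites in all, and 4 of its genes had one at the start.

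Of the cytoskeleton genes, Zyx had 268, 227 and 292 in vehicle and 261, 281 and 286 in LPS at its start (chr6:42326234-42327234). The means were 262 ± 33 and 276 ± 13.7, and the log2 fold of 0.08 had an interval of -0.17 to 0.33. Actg1, which encodes gamma actin, had 226, 209 and 223 and then 227, 206 and 228. Itgb1, of the beta-1 integrin, gave 248, 226 and 235 and then 215, 201 and 210 at a site 31.1 kb upstream, where every LPS value was below every vehicle value and M was -0.18. Vcl (vinculin), Tln1 (talin), Myh9 (a non-muscle myosin), Itgb2 and Itgav (integrins), and the actin regulators Cdc42, Wasf2 and Coro1a were also among the 19, and 8 of the 19 had a site at the start.

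Macrophage identity genes had a strong unchanged site at 11 of 29. Per site, the share that was strong and unchanged was 4.49% in this list, against 2.35% of all sites. Cx3cr1, the fractalkine receptor gene, had 278, 273 and 210 in vehicle and 341, 299 and 291 in LPS at a site inside it, with an M of 0.29 close to the bound. Itgam, which encodes CD11b, gave 235, 213 and 175 and then 231, 243 and 192 at 0.728 kb past its start. Spi1, the gene of the macrophage factor PU.1, had 159, 184 and 179 and then 185, 189 and 190 at 2.13 kb past its start, with M of 0.11. At the Cx3cr1 and Spi1 sites every LPS value was above every vehicle value. The start of Fcgr1, an Fc receptor gene, gave 137, 137 and 147 in vehicle and 137, 126 and 132 in LPS. Of the same 29 genes, 3 had a strong site with higher M and 5 one with lower M. Over all 13533 genes with a site these counts were 323 and 189. The list had a median of 9 sites per gene, against 3 for all genes.

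The CTBP co-repressor list, which holds CtBP itself, its partners and the factors that recruit it, had 7 of 33 genes. They were Bcl3, Bcl6, Ikzf1, Klf3, Prdm1, Zeb2 and Zfpm1, of which 4 had the site within 100 kb. Per site, the share that was strong and unchanged was 2.81% in this list, against 2.35% of all sites. Ikzf1, which encodes Ikaros, had 260, 295 and 246 in vehicle and 298, 247 and 240 in LPS at a site inside the gene, with means of 267 ± 25.5 and 262 ± 31.9. At Zeb2, a repressor that binds CtBP, the start gave 138, 128 and 167 and then 140, 132 and 150. Another site assigned to Zeb2 lay 1326 kb away, so nearest does not mean near. Strong sites with higher M were found at 6 genes of this list, against 323 of the 13533 genes with a site. The list had a median of 8 sites per gene, against 3 for all genes.

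Metabolic and lysosomal genes followed. Lipid and sterol genes had such a site at 10 of 29, among them Nr1h3, the gene of the oxysterol receptor LXR alpha, with 195, 193 and 187 in vehicle and 190, 211 and 191 in LPS. Lysosome and phagocytosis genes had 9 of 31, and glycolysis and NADH genes 7 of 25. Per site, the shares of the lipid, lysosome and glycolysis lists were 4.62%, 4.83% and 4.09%, against 2.35% of all sites. Hk2, a hexokinase gene, had 280, 289 and 267 and then 245, 237 and 218 inside the gene. Its LPS values were all below the vehicle values, with M of -0.25. At the start of Pkm, a pyruvate kinase gene, the values were 255, 238 and 239 and then 256, 182 and 182, and the groups overlap.

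Unlike the immediate early and AP-1 list, the other lists of the LPS response had shares closer to the 9.55% of all genes. Inflammatory mediators had 6 of 33 genes (18.2%), the interferon response 4 of 34 (11.8%; Ifnar1, Ifnar2, Irf7 and Socs1) and the NF-kB pathway 3 of 31 (9.68%; Ikbke, Map3k8 and Traf1). Per site, the shares that were strong and unchanged were 2.95%, 2.53% and 1.08% in these lists, against 2.35% of all sites. Strong sites with higher M were found at 8 genes of the NF-kB list, 5 of the interferon list and 3 of the inflammatory list. Over all 13533 genes with a site, 323 had one. These counts do not allow for the number of sites per gene. Ribosome genes had 4 of 27 and transcription genes 5 of 30. The lists of markers of other cells are short, with 2 of 10 lymphocyte genes (20%), 1 of 10 erythroid or stromal genes (10%) and 1 of 12 neutrophil genes (8.33%).

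**Figure D4:**
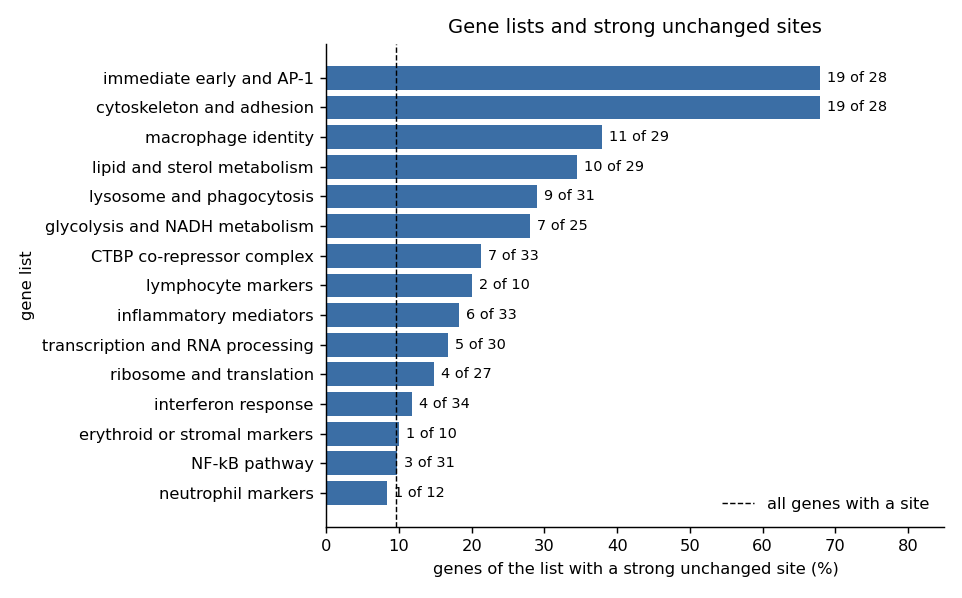
Share of the genes of each list, among those nearest to any CTBP2 site, that are nearest to a strong unchanged site, with counts beside the bars. The dashed line is the 9.55% of all genes with a site, and the 2 longest bars are 67.9%. Lists differ in the number of sites per gene, which these shares do not allow for.

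Several genes had more than 1 strong unchanged site. Among the 1292 genes, 1153 had 1, 117 had 2, 16 had 3, 5 had 4 and 1 had 5. The gene with 5 was Runx1, a transcription factor of blood cell development. Its sites gave 201, 212 and 205 in vehicle and 210, 205 and 198 in LPS at 76.3 kb past the start used (chr16:92417399-92418399), and 147, 131 and 192 and then 192, 160 and 177 at a start. The other Runx1 sites lay 21.5 kb past a start and 41.4 and 206 kb upstream, with M of 0.03, 0.16 and -0.04. Rbpj, the DNA-binding factor of Notch signalling, and Ptk2b, a kinase of adhesion signalling, had 4 each. Tomm20, of the mitochondrial import complex, also had 4, as did Gm21761, and those of Tomm20 were all 77.3 to 118 kb from its start.

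Strong unchanged sites had a changed site nearby in shares not far from those of all sites, and the difference was not tested. Another site was within 10 kb of 84.5% of them, against 75.7% of all sites. A site called higher in LPS by limma was within 10 kb of 334 (22.9%) and a site called lower within 10 kb of 305 (20.9%), and 31 had both. Over all sites these shares were 21.2% and 17.3%. Strong sites with higher M had a higher neighbour at 39.5% and a lower one at 7.56%, and those with lower M at 15.3% and 37.8%, in each case more often of their own direction. Sites at starts had a higher neighbour at 18.5% and the others at 25%.

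The inflammatory list had 8 strong unchanged sites, 3 of them nearest to Ccl2, and 7 of the 8 had a neighbour within 10 kb called higher by limma. Over all 1460 sites that share was 22.9%. At 3 of the 8 a neighbour had an FDR under 0.05 in the authors' deposited table. Over all 62236 sites 2727 had such an FDR, 2497 of them higher in LPS. The share of all sites with such a neighbour was not counted. At Ccl2, which encodes a monocyte chemokine, the promoter site (chr11:81925636-81926636) had 271, 254 and 212 in vehicle and 257, 209 and 202 in LPS, or 246 ± 30.2 and 223 ± 30.1 (SD, n = 3). Its groups overlap, with a log2 fold of -0.14 and an interval of -0.41 to 0.12. All 3 sites within 10 kb of it were called higher, and the one at 2.39 kb rose from 54.4 ± 4.72 to 105 ± 8.17 with a limma adjusted p of 2.28e-05. In the authors' deposited table none of the 3 passed, with FDRs of 0.142, 0.213 and 0.559. The 2 other Ccl2 sites, 12.7 and 28.5 kb upstream, had 1 of 2 and 1 of 3 neighbours called higher by limma. The called neighbour is the same site for both, so these are not separate cases.

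Between Cxcl1 and Cxcl2, genes of neutrophil chemokines, an unchanged site 5.15 kb before Cxcl2 had 171, 159 and 149 in vehicle and 181, 165 and 164 in LPS. The site 7.34 kb from it rose from 24.3 ± 3.94 to 793 ± 227 (limma adjusted p of 2.56e-17), and the one 4.94 kb on the other side rose from 35.5 ± 1.41 to 468 ± 130 (1.24e-16). So both neighbours of the Cxcl2 site were weaker than it in vehicle and stronger in LPS. At Ccl3, of another chemokine, the unchanged site had 153, 147 and 156 and then 151, 165 and 211, and 1 of its 4 neighbours was called, 7.43 kb away, which rose from 104 ± 14.7 to 587 ± 130 (limma adjusted p of 2.56e-13). Acod1, the itaconate synthesis gene, had 164, 157 and 121 and then 145, 169 and 173 at a site 9.82 kb upstream, and 3 of the 5 sites within 10 kb of it were called higher by limma. Of these 5, 1 had an FDR under 0.05 in the authors' deposited table (0.00568). Tnfsf9, of a co-stimulatory ligand, had 147, 150 and 182 and then 155, 155 and 153, and its 1 neighbour was called higher by limma with an FDR of 0.493 in the authors' deposited table. Edn1, the endothelin gene, had 167, 158 and 148 and then 210, 169 and 180, with M of 0.24, and neither of its 2 neighbours was called. The start of Ctsc, a lysosomal protease gene, gave 166, 151 and 148 and then 197, 170 and 179, with M of 0.23. Of its 5 neighbours 3 were called higher by limma, though none of the 5 had an FDR under 0.119 in the authors' deposited table. At the Edn1 and Ctsc sites every LPS value was above every vehicle value.

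**Figure D5:**
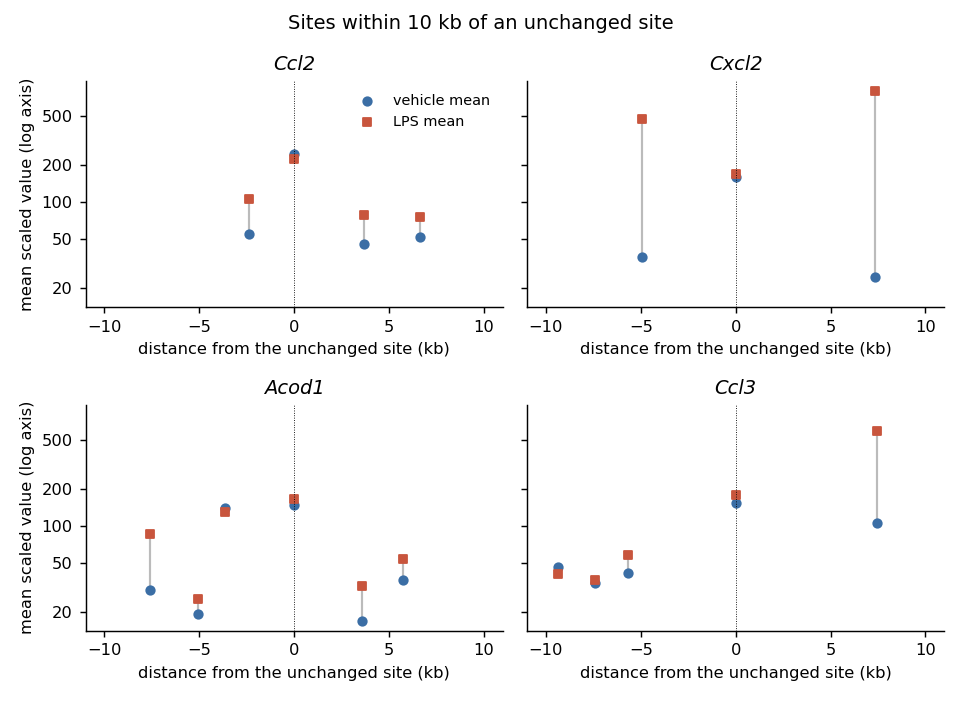
Mean scaled value in vehicle (circles) and LPS (squares), on a log y axis, of an unchanged site (at 0) and of every site within 10 kb of it at Ccl2, Cxcl2, Acod1 and Ccl3. At Cxcl2 the flanking sites go from 24.3 and 35.5 to 793 and 468 while the site between them goes from 160 to 170.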

How the data were processed

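CTBP2 signal was read from the authors' table of 62236 sites (61976 with a width of 1001 bp). Per the file headers it holds a normalised signal per site for each of 6 libraries, log2 means, a log2 fold, p-values and FDR deposited by the authors. The submitters' processing notes name BWA 0.7.17 and MACS3 3.0.0a5, DiffBind 3.16 in R 4.4.1, SAMtools 1.9 with Picard 3.2.0, and also deepTools 3.5.1, FastQC and bedtools. The method of normalisation and whether peaks were called per library are not given in the sources used here. Deposited medians per library ran from 35.5 to 73, and scaling by the median removes such differences, including any of biological origin.

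Sites were tested with limma 3.58.1 (R 4.3.3), with its trend and robust settings, on log2(scaled value + 1) with Benjamini-Hochberg adjustment over all 62236 sites, first tested on simulated data. Folds on this scale understate changes at low sites. Other values were computed in Python 3.11.15. The table's gene columns follow GRCm38 and the sites are taken as GRCm39, so an offset was measured over 22783 starts in 107 stretches (median 138 kb), and no shifted coordinate is printed. The fit included the 20 dropped rows, 10 of them on chromosome 9 below 4 Mb.

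The members, the 15 gene lists and the motifs were chosen with earlier results of these data known. Named were, by rule, the 12 strongest sites (1 per nearest gene), up to 3 genes per list by the lowest scaled value, 3 sites each side of each bound, the 8 strongest with a promoter sequence and the 5 genes with most sites, and not all of them are reported here. Spi1, Fcgr1, Fos, Jun, Myc, Dusp1, Zeb2, Actb, Ccl3, Acod1, Tnfsf9, Vcl, Tln1, Myh9, Itgb2, Itgav, Cdc42, Wasf2 and Coro1a and the sites within 10 kb were named after their values were seen. Alternatives covered scaling, pseudocount, cuts, distances, the replicate block and leaving out each library.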

Additional observations from a re-analysis of the deposited data

How the results depend on the processing

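With other scalings, pseudocounts, numbers of dropped rows, bounds on M and ranking by the mean, the rule chose between 1123 and 1807 sites, and 1151 of the 1460 were also chosen from the deposited values as they stand (1365 sites). Taking the top 1000 gave 759 and the top 4000 gave 2848. Leaving out 1 library gave 1336 to 1479 sites. Quantile normalisation kept 91.4% of the 1460 within the bound on M, and the median M of the 1460 lay between -0.05 and 0.03 under all 5 scalings.

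On the deposited values as they stand, limma called 1178 sites higher and 30 lower in LPS. Same-numbered libraries had correlations of 0.111, 0.0385 and 0.214 between their deviations from the group means. All are positive, but not all are over 0.1, the level required here to treat the numbers as pairs, and 4 of the 6 libraries correlated best with their own number, among them both of number 3. With the replicate block, 11692 sites were called higher and 10400 lower, and 46 of the 1460 passed. Leaving out 1 library called 7691 to 10083 higher and 6030 to 7914 lower, and 0 to 86 of the 1460 passed.

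The share at a gene start was 24.7% within 250 bp and 36.4% within 1000 bp, and 28.4 to 34.4% when the sites were chosen without 1 library. A looser search for the offset (penalty 12 in place of 30), chosen after seeing the data like the choices without 1 library, gave 32.3%. Another site lay within 5 kb of 58.2% and within 20 kb of 94.6%, and a higher one (distances added after seeing the data) at 11.2% and 37.9%. The deposited distances had a median of 41.7 kb. By the gene the table names, lists had 8 of 25 (cytoskeleton), 7 of 20 (immediate early), 6 of 28 (macrophage) and 5 of 25 (NF-kB) named genes. Further shares were 1 of 27 (transcription), 1 of 1 (lymphocyte), 0 of 5 (neutrophil) and 0 of 3 (erythroid or stromal), against 1213 of 8232 over all genes. Within 100 kb the CTBP list had 4. Numbers held out gave 74, 72.7 and 69.7% within 0.3. In the central 200 bases 12 of the 15 motif shares left their interval, as a shorter window holds fewer matches. Apart from these, the cause of each shift was not tested.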

Other observations

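The X chromosome held few of the strong unchanged sites. Of its 977 sites 2 were in the set (0.205%), against 1458 of 61228 (2.38%) on chromosomes 1 to 19, where single chromosomes ranged from 1.8 to 3.1%. Among the 2000 strongest sites 3 were on X. Signal at X sites was lower as well, with a median of 38.4 in vehicle against 44.7, and at gene starts 44.4 against 79.6. The mice were male and values were not adjusted for the copy number of X, whose part in these shares was not tested. Flna, which encodes the actin crosslinker filamin A, was one of the 2, with 212, 199 and 219 in vehicle and 169, 166 and 178 in LPS at 2.69 kb past its start. Its LPS values were all below its vehicle values, and M was -0.29. The other was a site 158 kb from Mid1, a microtubule-associated ubiquitin ligase gene, with 258, 272 and 142 and then 276, 212 and 169.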
